A study of Homo sapiens with 48 samples.

Results

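The guanylate-binding protein genes GBP1, GBP2, GBP3, GBP4 and GBP5 were followed in T47D-YA breast cancer cells given IGF-I. The members were chosen by name, as every probe set whose single gene symbol in the platform's annotation is GBP1, GBP2, GBP3, GBP4 or GBP5. This gave 11 probe sets for 5 of the 19775 genes with such a probe set, namely 4 for GBP1, 2 each for GBP2, GBP4 and GBP5 and 1 for GBP3. The family was selected on the rise of GBP1 with IGF-I at 4 h, so the IGF-I and baseline values of its members are given as a description, with no test. T47D-YA is a variant of the estrogen receptor-positive breast cancer line T47D that lacks IRS adaptor proteins, the docking proteins through which the IGF-I receptor signals. Each subline is a single clone that stably carries human IRS-1 (clones IRS-1 #10 and IRS-1 #20) or human IRS-2 (clones IRS-2 #1 and IRS-2 #6), below also called by their number alone. Cells of every group spent 24 h in serum-free medium (SFM) and were then given SFM with fibronectin for 24 h or 4 h. IGF-I was added to it in the IGF-I arrays, and it was given alone in the arrays called SFM. Expression was read on HG-U133 Plus 2.0 arrays of Affymetrix, 3 per combination of clone, treatment and time, 48 arrays in all. The labels give the arrays of a group letters and do not say whether they came from separate cultures, so errors and p-values measure the spread between arrays, which may be technical. Isoforms were not compared by a test, since each is represented by 2 single clones, and IRS-null cells were not analysed here.

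Guanylate-binding proteins are large GTPases of the dynamin superfamily that assemble on membranes after binding GTP, and they are best known as proteins induced by interferon-gamma that attack intracellular bacteria and parasites. GBP1 carries a farnesyl anchor and GBP2 and GBP5 a geranylgeranyl anchor, whereas GBP3 and GBP4 are not prenylated. Interferon-gamma acts on promoter elements called GAS and ISRE, the second of which IRF1 binds, and type I interferons act through ISRE as well. GBP1 also restrains proliferation of endothelial cells.

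The family forms a cluster on chromosome 1. In the RefSeq annotation of GRCh38.p14, 7 GBP genes lie within 381 kb in the order GBP3, GBP1, GBP2, GBP7, GBP4, GBP5, GBP6, and GBP1 itself spans chr1:89052319-89065208. The RefSeq promoter table holds 3 of the 5 members (GBP1, GBP3 and GBP4), as windows of 300 bases, the 250 before the annotated start and the 50 after it. The sequence before the starts of GBP1 and GBP3 is shown because these neighbours are close copies that differed in their measured IGF-I response. GBP3 read under 5 on the log2 scale on 31 of the 48 arrays, a low level at which a response may be missed. Both lie on the minus strand and read 5′ to 3′ towards the start, GBP1 at chr1:89065209-89065458 and, for GBP3, the last 100 bases at chr1:89022867-89022966. Capitals mark motif matches, in GBP1 first a CArG box (the binding sequence of serum response factor) and then an ISRE core read on the opposite strand, and in GBP3 an AP-1 match. A GAS match of GBP3, at -15 to -7, is left in lower case.
GBP1: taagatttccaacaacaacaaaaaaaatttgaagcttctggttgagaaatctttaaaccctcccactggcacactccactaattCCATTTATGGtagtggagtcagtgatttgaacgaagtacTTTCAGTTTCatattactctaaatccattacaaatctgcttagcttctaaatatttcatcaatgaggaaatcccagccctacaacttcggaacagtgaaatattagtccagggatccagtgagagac
GBP3: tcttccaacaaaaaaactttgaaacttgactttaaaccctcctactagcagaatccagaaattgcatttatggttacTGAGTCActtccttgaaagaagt
A local alignment of both windows paired 144 bases, of which 117 (81.2%) were identical. It ran from base -235 to -81 of GBP1, counted from its start, and from -95 to 50 of GBP3, so the copied stretch lies closer to the start in GBP3. The ISRE core, searched as GAAANNGAAA on both strands, matched at -127 to -118 in GBP1, at 3 to 12 in GBP3 and at -4 to 6 in GBP4, and 3.57% of all 35116 windows of the same length held it. The CArG box matched at -166 to -157 in GBP1 and in 1.29% of all windows. The motifs were chosen after the values had been seen. The aligned stretch in GBP3 differs from it by 1 base, C1G, with positions counted from the 5′ end of the box, and held no match. The AP-1 motif TGANTCA matched in GBP3 and in 7.71% of windows, and the GAS motif TTCNNNGAA matched in GBP3 and in 7.66% of windows, with no overlap between the matches of different motifs in these windows. A match of letters is a description and shows no binding, and its part in the responses was not tested.

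Over all probe sets the deposited log2 values ran from 3.13 to 15.36, and the medians of the arrays lay between 7.39 and 7.51. Within groups the arrays had correlations of 0.994 to 0.998 over all probe sets. Of 10 luminal breast epithelial markers, 9 had a mean of 10 or more in the IGF-I and in the SFM arrays. The mean of 4 measured leukocyte markers was 6.26 to 6.59 in IGF-I arrays and 6.19 to 6.53 in SFM arrays. That of 4 fibroblast markers was 7.23 to 7.74 in IGF-I arrays and 7.25 to 7.70 in SFM arrays, with COL1A1 at 10.03 over all arrays, and that of 3 endothelial markers was 7.37 to 7.77 in IGF-I arrays and 7.41 to 7.70 in SFM arrays, with PECAM1 at 9.29. For 3 basal or mesenchymal markers it was 7.45 to 8.01 in IGF-I arrays and 7.47 to 8.01 in SFM arrays. Their part in the results was not tested. On this scale 10.6% of all values of the series lie under 5 and 21.3% under 6. An IRS1 probe set averaged 5.85 in the clones labelled IRS-1 and 8.27 in those labelled IRS-2, and the other IRS1 and IRS2 probe sets differed by at most 0.41. Whether these probe sets lie in the transferred sequences is not known, so the clones are called by their labels. The 3-prime minus 5-prime signal of ACTB, a sign of RNA integrity, averaged 0.028 lower with IGF-I on the log2 scale (differences by clone and time of -0.047 to -0.011), and its part in the results was not tested.

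GBP1 was higher with IGF-I in every clone at 4 h, and in 3 of them by far less at 24 h. In bulk RNA, more cells with a transcript and more transcript per cell cannot be told apart. On its brightest probe set, which stands for the gene unless stated, the log2 difference, IGF-I minus SFM, was 0.62 in the IRS-1 clone #10, 0.54 in the IRS-1 clone #20, 0.085 in the IRS-2 clone #1 and 0.38 in the IRS-2 clone #6 at 24 h. At 4 h it was 0.64 in #10, 2.17 in #20, 2.06 in #1 and 2.33 in #6, with a standard error of 0.091 in each comparison. Clone #10 thus had a response of the same size at both times (24 h minus 4 h, -0.026), while the other clones had 1.63 to 1.97 less at 24 h.

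Array by array at 24 h, GBP1 read 9.59, 9.65 and 9.73 with IGF-I in #10, against 9.02, 8.90 and 9.19 in SFM. In #20 it read 9.30, 9.32 and 9.25 with IGF-I, against 8.77, 8.69 and 8.80 in SFM. In #6 the IGF-I arrays read 9.08, 9.20 and 9.37, against 8.70, 8.94 and 8.88 in SFM. In these 3 clones every IGF-I array lay above every SFM array. In #1 the values were 8.03, 7.90 and 8.03 with IGF-I and 8.01, 7.94 and 7.76 in SFM, and the groups overlapped.

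At 4 h, clone #10 read 9.51, 9.64 and 9.36 with IGF-I, against 8.96, 8.82 and 8.80 in SFM, a 1.56-fold difference. Clone #20 read 10.25, 10.09 and 10.28 with IGF-I, against 7.87, 8.02 and 8.23 in SFM, or 4.49-fold. Clone #1 read 9.95, 9.81 and 9.86 with IGF-I, against 7.75, 7.89 and 7.81 in SFM, or 4.16-fold. The groups of all these clones stood apart. Clone #6 had the highest fold, 5.02, with 10.28, 10.12 and 10.20 under IGF-I, against 7.61, 8.06 and 7.95 in SFM. Clone #10 differed from the others in both groups, since its SFM arrays were the highest and its IGF-I arrays the lowest of the 4 clones at this time. Ordered over all 16 groups, the 4 h IGF-I means of #20 (10.21) and #6 (10.20) came first and their arrays overlapped, #1 (9.87) came next and stood apart from both its neighbours, and SFM at 4 h in #1 (7.82) came last.

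**Figure D1:**
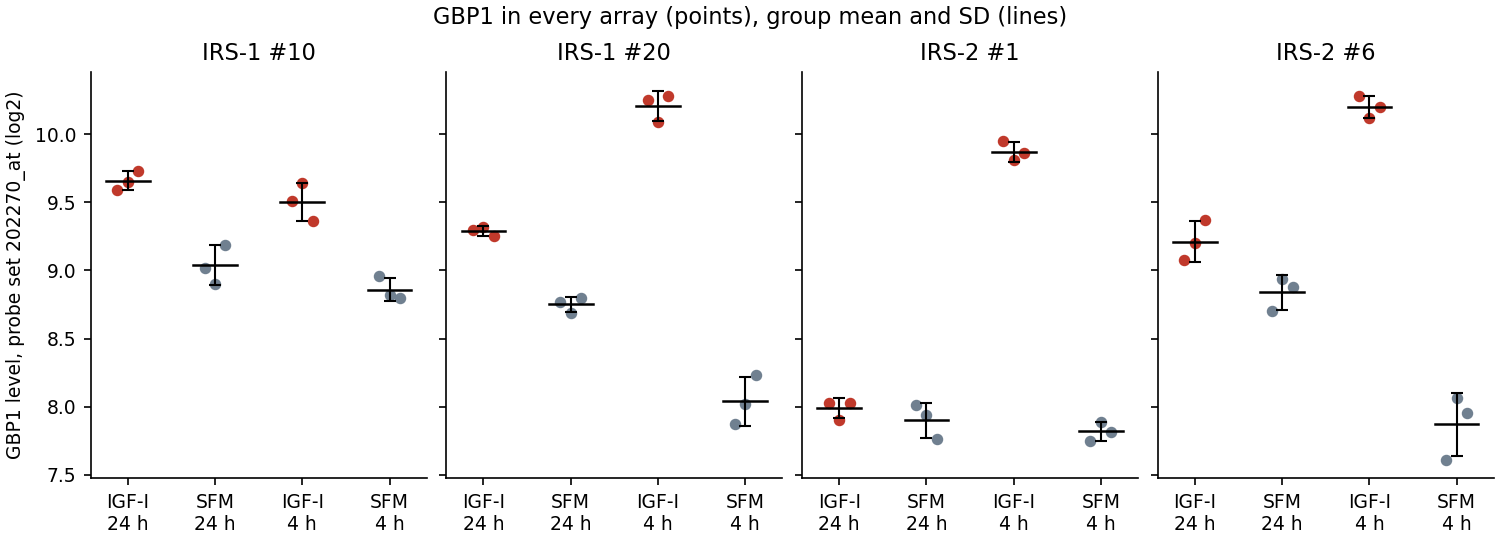
GBP1 level on the log2 scale (brightest probe set) in each of the 48 arrays, by clone, with IGF-I arrays in red and SFM arrays in grey, the mean as a long line and the SD as a bar. At 4 h the IGF-I arrays of #20, #1 and #6 lie between 9.81 and 10.28 and their SFM arrays between 7.61 and 8.23, and at 24 h the groups of #1 overlap.

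Of the other GBP1 probe sets, 2 gave the same picture. For the second brightest, an _s_at probe set, the differences at 24 h were 0.50 in #10, 0.42 in #20, 0.15 in #1 and 0.38 in #6, and at 4 h they were 0.68, 2.18, 2.12 and 2.25 in the same order. For the third, an _x_at probe set, they were smaller at 4 h, with 0.32 in #10, 1.84 in #20, 1.68 in #1 and 1.99 in #6. By the platform's naming, an _x_at probe set holds probes that can also match other transcripts and an _s_at one is shared between related transcripts, and with copies as close as these the signal of a relative cannot be separated. The fourth and dimmest stayed between 4.52 and 5.26 on all 48 arrays, near the low end of the scale, with differences from -0.16 to 0.19. The annotation gives it the same source sequence as the _s_at probe set, and what it detects was not examined.

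GBP2, whose protein is known with GBP5 to lower the infectivity of HIV particles, was also higher with IGF-I at 4 h in some clones, but less so and with a difference in size between its probe sets. On the dimmer one, #20 read 6.59, 6.58 and 6.70 with IGF-I at 4 h, against 5.93, 6.12 and 5.68 in SFM. Clone #1 read 7.33, 7.79 and 7.50 with IGF-I, against 6.95, 6.73 and 7.00 in SFM. Clone #6 read 7.22, 7.17 and 7.00 with IGF-I, against 6.30, 6.46 and 6.05 in SFM. The groups stood apart in these 3 clones, with log2 differences of 0.71, 0.65 and 0.86 (SE 0.11). In #10 the values were 6.82, 6.93 and 6.90 with IGF-I and 6.98, 6.87 and 7.01 in SFM and overlapped, a difference of -0.069. At 24 h the difference was below 0 in 3 clones, with -0.41 in #10, -0.37 in #1 and -0.20 in #6 and every IGF-I array below every SFM array, while #20 had 0.08 and overlapping groups.

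On the brighter GBP2 probe set the differences at 4 h were -0.25 in #10, 0.35 in #20, 0.18 in #1 and 0.45 in #6 (SE 0.099). Without the arrays with letter A the difference in #20 was 0.17. Arrays of #10 read 7.63, 7.72 and 7.84 with IGF-I, against 7.97, 7.99 and 7.97 in SFM, so that GBP2 was lower in each IGF-I array of the clone in which GBP1 had its smallest 4 h response. In #6 the arrays read 7.94, 7.60 and 7.79 with IGF-I, against 7.36, 7.31 and 7.30 in SFM, all of them higher. At 24 h the differences were -0.23 in #10, 0.023 in #20, -0.21 in #1 and -0.24 in #6. Both GBP2 probe sets thus ordered the clones alike at 4 h, with #6 at the top and #10 at the bottom.

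GBP3, GBP4 and GBP5 differed little between IGF-I and SFM arrays. Over their 5 probe sets and 8 comparisons the log2 differences lay between -0.19 and 0.24. GBP3, the neighbour whose promoter resembles that of GBP1, had at most 0.24, in #10 at 24 h, where it read 6.04, 5.85 and 6.03 with IGF-I and 5.73, 5.62 and 5.86 in SFM. At 4 h its differences were -0.17 in #10, -0.033 in #20, 0.03 in #1 and -0.021 in #6, beside 0.64 to 2.33 for GBP1 in the same arrays. GBP3 lay under 5 on 31 of the 48 arrays, where a response may be missed. GBP4 (brighter probe set) ranged from -0.16 to 0.11 over the 8 comparisons, and GBP5, which is linked to assembly of the NLRP3 inflammasome, on its brighter probe set from -0.11 to 0.13. The dimmer probe set of GBP5 stayed between 3.95 and 4.48, under 5 on all 48 arrays.

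**Figure D2:**
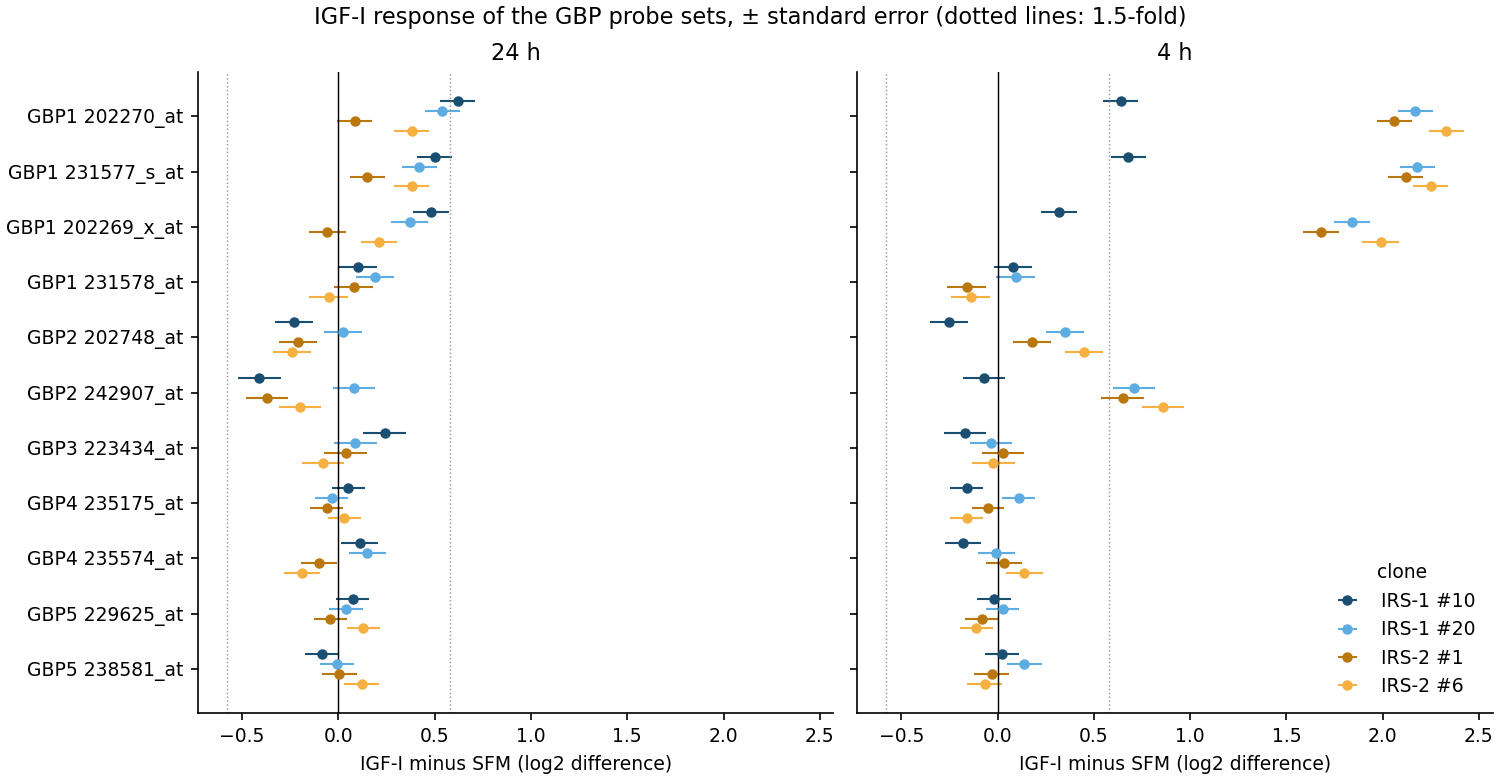
Log2 difference, IGF-I minus SFM, of each of the 11 GBP probe sets (rows) in the 4 clones (colours) at 24 h and 4 h, with standard errors as bars and dotted lines at 1.5-fold. At 4 h, 3 GBP1 probe sets lie between 1.68 and 2.33 in #20, #1 and #6, the dimmer GBP2 probe set lies between 0.65 and 0.86 in the same clones, and GBP3, GBP4 and GBP5 lie near 0.

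Across all probe sets a difference was called at a limma adjusted p under 0.05 and at least 1.5-fold (0.58 on the log2 scale). At 24 h, 1 of the 11 member probe sets, the brightest of GBP1, was past this rule in #10, where 0.251% of all probe sets were, and 0 were in #20 (0.251%), #1 (0.0476%) and #6 (0.0787%). At 4 h, 2 GBP1 probe sets were past it in #10, beside 0.0623% of all. In #20, #1 and #6, the same 4 were past it (3 of GBP1 and the dimmer of GBP2), beside 0.110%, 0.108% and 0.223% of all. As the members were chosen with these contrasts known, nothing is read from the counts.

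Without IGF-I, GBP1 and GBP3 were highest in #10 and lowest in #1. The SFM level of GBP1 at 24 h was 9.04 ± 0.15 in #10, 8.84 ± 0.13 in #6, 8.75 ± 0.057 in #20 and 7.90 ± 0.13 in #1 (SD, n = 3 arrays each). The first 3 overlapped with their neighbours in this order, and #1 stood apart below them. At 4 h the order was #10 (8.86 ± 0.087), #20 (8.04 ± 0.18), #6 (7.87 ± 0.23) and #1 (7.82 ± 0.069), where #10 stood apart and the others overlapped. The span between the highest and the lowest clone was 1.14 at 24 h and 1.04 at 4 h, less than the IGF-I differences of GBP1 at 4 h in 3 clones. Without the arrays with letter C the span at 24 h was 0.99.

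GBP3 averaged 5.74 ± 0.12 in #10 at 24 h and 4.67 ± 0.066 in #1, with 5.07 ± 0.15 in #20 and 4.83 ± 0.047 in #6 between them (SD, n = 3 each), and no neighbours in this order overlapped. At 4 h it was 5.79 ± 0.089 in #10 and 4.59 to 4.81 in the other clones, which overlapped with one another. GBP2 had another order, with #1 highest at 24 h (8.10 ± 0.085 on its brighter probe set) and #20 lowest and apart from the rest (7.23 ± 0.20). The clone means of GBP4 spanned 0.39 at 24 h and 0.47 at 4 h, and those of GBP5 0.19 at 24 h and 0.37 at 4 h, on the brighter probe set of each.

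**Figure D3:**
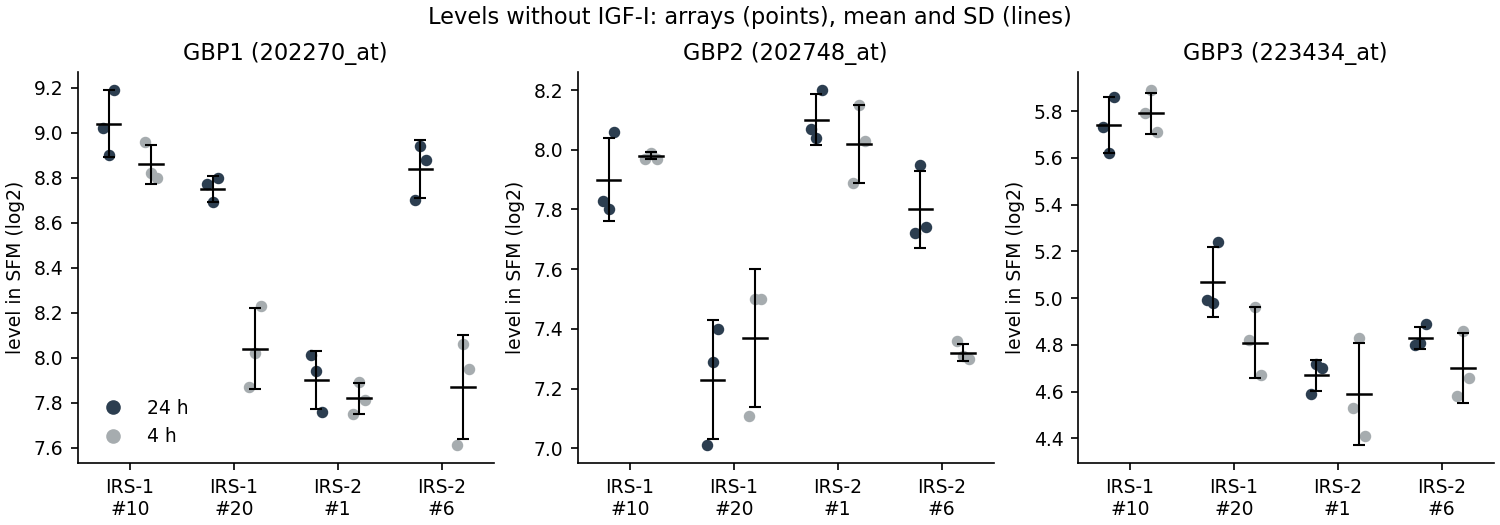
Log2 level of GBP1, GBP2 and GBP3 in the SFM arrays of each clone at 24 h (dark) and 4 h (light), with the mean and SD as lines. GBP1 and GBP3 are highest in #10, GBP2 is highest in #1 at 24 h, and GBP1 in #20 and #6 is higher at 24 h than at 4 h.

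GBP1 also differed with time in SFM. It averaged 8.75 at 24 h, against 8.04 at 4 h, in #20, and 8.84 at 24 h, against 7.87 at 4 h, in #6, differences of 0.71 and 0.97 (SE 0.091) with no overlap. In #10 and #1 the differences were 0.18 and 0.086 and the arrays overlapped, although on the second GBP1 probe set #10 had 0.26 with no overlap. These SFM arrays also serve as controls of the IGF-I comparisons, so a level that is high in SFM at 24 h lowers the IGF-I difference at 24 h. The members' changes over time in SFM are therefore given as a description, with no p-value printed. Counts of members past the call rule are given below beside the share of all probe sets, and nothing is read from them. With IGF-I the levels went the other way, at 9.29 in 24 h arrays, against 10.21 in 4 h arrays, of #20, and 9.21 at 24 h, against 10.20 at 4 h, in #6.

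Over time in SFM, 2 GBP1 probe sets were past the call rule in #20, 3 in #6 and 0 in #10 and #1. Of the 7 probe sets of GBP2, GBP3, GBP4 and GBP5, 0 were past it in any clone. The share of all probe sets past it was 0.0220% in #10, 0.699% in #20, 0.229% in #1 and 0.482% in #6. Among these relatives of GBP1, GBP2 in #6 came closest. On its brighter probe set it read 7.72, 7.95 and 7.74 at 24 h, against 7.36, 7.31 and 7.30 at 4 h, a difference of 0.48 (SE 0.099). On the dimmer one it differed by 0.57 (SE 0.11), and every 24 h array lay above every 4 h array, but both fell short of 1.5-fold. Without a fold requirement, 2 of the 16 pairs of one of these relatives and a clone had a limma adjusted p under 0.05. Nothing is read from this count or from its changes under other settings, since the SFM values of the members are only described. The 2 pairs were GBP2 in #6, where 12.8% of all probe sets passed the same rule, and GBP4 in #20 (0.26, SE 0.085), where 20.8% did. GBP4 no longer passed it without the arrays of any 1 letter, with quantile-normalized arrays, with its probe sets averaged or in a fit to the 6 arrays compared. That share was 1.83% in #10 and 5.33% in #1. With arrays quantile-normalized or centred on their medians, or without the arrays with letter A or B, the dimmer GBP2 probe set in #6 passed 1.5-fold as well (0.62, 0.61, 0.63 and 0.59).

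The genes that induce GBPs, and the other genes that interferons induce, were taken from lists written from general knowledge with earlier results of these data known. Of 18 regulators of interferon-gamma signalling 16 were measured, and 0 were called with IGF-I in any of the 8 comparisons, at the background shares given above. IRF1, the transcription factor that induces GBP genes, had differences of -0.14 to 0.22 with IGF-I, and in #6 at 4 h it averaged 8.34 with IGF-I and 8.12 in SFM (0.22, SE 0.068, limma adjusted p = 0.0739). Of 34 interferon-gamma target genes, 31 were measured and 1 was called, the death receptor gene FAS in #20 at 24 h, with 9.58 under IGF-I, against 8.96 in SFM (0.62, SE 0.071, limma adjusted p = 6.2e-09). The medians of these target genes' log2 differences lay between -0.048 and 0.16, beside -0.009 to 0.011 over all probe sets. Without the fold requirement, 12 of the 31 rose and 0 fell in #20 at 24 h, where 7.20% of all probe sets passed. In #10 at 24 h, 6 rose and 2 fell, where 8.01% passed. In #1 at 24 h, 1 rose and 4 fell, where 1723 of 54613 probe sets passed. In #6 at 24 h, 1 rose and 5 fell, where 2098 passed. At 4 h, 0 to 2 rose and 0 to 1 fell, where 887 to 1684 passed.

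All 38 type I interferon target genes were measured, and 4 calls were made in the 8 comparisons. IFIT2 (0.63) and IFIT3 (0.62), which encode RNA-binding antiviral proteins, rose in #6 at 4 h, where GBP1 had 2.33. RSAD2, the antiviral enzyme viperin, rose in #10 at 24 h (0.63), and HERC5, the ligase for ISG15, in #20 at 24 h (0.62), each at a limma adjusted p of 4.68e-05 or lower. Of the 12 alternative settings 3 lost the calls of IFIT2 and of IFIT3, 2 that of FAS and 1 each those of RSAD2, HERC5 and, below, IER3. In the other comparisons 0 were called. The list's median difference was 0.24 in #10, 0.26 in #20, -0.10 in #1 and 0.049 in #6 at 24 h, and it lay between -0.10 and 0.10 at 4 h. Without the fold requirement, 20 of the 38 rose in #10 at 24 h and 19 in #20, where 8.01% and 7.20% of all probe sets passed, and 0 fell. In the other 6 comparisons 0 to 7 rose and 0 to 3 fell by that rule. Of 20 other guanylate-binding and dynamin-like GTPases and 18 processing and binding partners of GBPs, such as the farnesyltransferase subunits FNTA and FNTB, 18 and 17 were measured and 0 were called in any IGF-I comparison.

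NF-kappaB target genes, of which 23 of 25 were measured, held the gene that was called most often. CCL2, which encodes a chemokine for monocytes, rose with IGF-I at 4 h by 0.64, 0.98, 0.93 and 1.34 in #10, #20, #1 and #6, and at 24 h by 0.66 in #10. In #6 at 4 h it read 10.74, 10.37 and 10.67 with IGF-I, against 9.22, 9.23 and 9.29 in SFM (limma adjusted p = 2.21e-18). IER3, an early response gene, rose in #6 at 4 h (0.61), and the chemokine gene CCL20 fell by 1.01 in #6 at 24 h. The other 20 measured members were called in 0 of the 8 comparisons. Over all lists 12 calls were made in the 8 IGF-I comparisons. Without the fold requirement there were 144, where 3.88% of all probe sets passed in these comparisons. These 144 take rises and falls together, over lists of 16, 31, 38, 18, 23 and 17 measured genes in each of the 8 comparisons. CASP1 and CASP4 stand both in the interferon-gamma target list and in the partner list.

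Type I interferon targets rose with time in SFM, in most numbers in #20 and #6, the clones in which GBP1 was higher at 24 h. At 24 h against 4 h, 16 of 38 rose in #20 and 28 of 38 in #6, beside 5 in #1 and 0 in #10, and 0 fell. The share of all probe sets called, in either direction, was 0.699% in #20, 0.482% in #6, 0.229% in #1 and 0.0220% in #10. Their median difference was 0.12 in #10, 0.52 in #20, 0.29 in #1 and 0.88 in #6, while that of all probe sets lay between -0.023 and 0.018. RSAD2, for example, averaged 9.57 at 24 h, against 8.34 at 4 h, in #6 (1.23, SE 0.093, limma adjusted p = 3.46e-14), and IFIT3 rose by 1.35 there and by 1.01 in #20. The change of GBP1 was 0.97 and 0.71 in these clones, and its relatives stayed below: GBP2 had 0.48 in #6 and -0.13 in #20, and GBP3, GBP4 and GBP5 had -0.22 to 0.26.

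The genes of the other lists that were called over time in SFM are named here. Of all probe sets, 0.0220% were called in #10, 0.699% in #20, 0.229% in #1 and 0.482% in #6, in either direction. Of the 31 measured interferon-gamma targets, 5 rose in #6 (CXCL10, CXCL11, HLA-DRA, XAF1 and TNFSF10), with CXCL10 at 9.61 in 24 h arrays, against 8.65 in 4 h arrays. In #20 and #1, 1 each rose (XAF1 and TNFSF10). The dynamin-like antiviral GTPase MX1 rose by 0.59 in #20 and by 0.98 in #6, and IRF9, the DNA-binding subunit of the type I interferon factor, by 0.70 in #6. Of the NF-kappaB targets, CCL2 rose in #20 and #6, CCL20 in both IRS-2 clones and CXCL1 in #6, while SOD2 fell in #20 and IER3 in #1. The processing and binding partners had 0 calls.

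The clones also differed in the level of these genes. The median SFM level of the 38 type I targets at 24 h was 11.39 in #10, 11.29 in #20, 9.24 in #1 and 10.55 in #6, and at 4 h it was 11.21, 10.68, 8.95 and 9.73 in the same order. By the mean for GBP1 and GBP3 and by the median for the list, the SFM value was lowest in #1 and highest in #10 at both times. Most genes of the list were nevertheless higher in #20 than in #10 at 24 h. RSAD2 averaged 10.92 in #10 and 11.25 in #20, and OAS2 12.37 and 12.88. GBP2 and GBP5 were instead highest in #1 at 24 h, on the brighter probe set of each. This comparison of 4 clones was not tested.

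**Figure D4:**
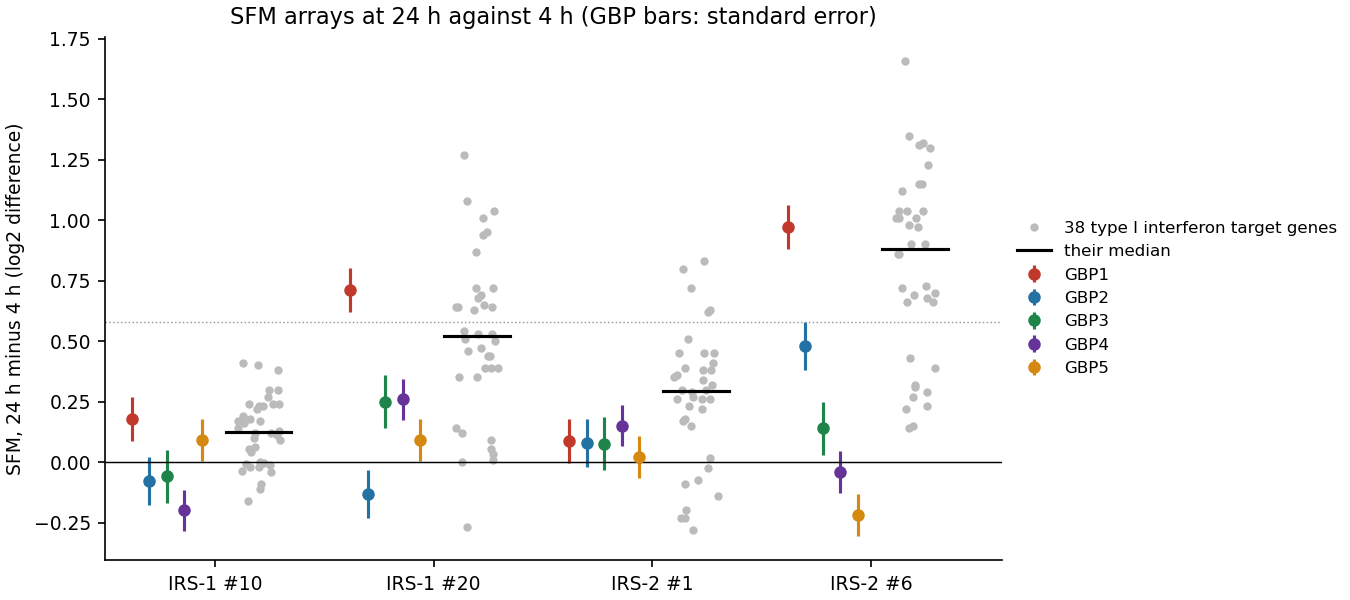
Log2 difference between SFM arrays at 24 h and at 4 h in each clone, for the 5 GBP genes (coloured points with standard errors, brightest probe set of each) and for the 38 type I interferon target genes (grey points, with their median as a line). The dotted line marks 1.5-fold, which GBP1 passes in #20 (0.71) and #6 (0.97), where the medians of the list are 0.52 and 0.88.

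Over the 48 arrays, each set relative to the mean of its clone, the 5 genes whose pattern was most like that of GBP1 among 18807 were AMOTL2 (r = 0.873), CCL2 (0.866), FHL2 (0.855), ZYX (0.854) and CCN1 (0.849). The correlation is a description, since the arrays share clones, treatments and times and the genes were picked as the highest. AMOTL2 encodes a scaffold at cell junctions, ZYX the focal adhesion protein zyxin, FHL2 a LIM-domain cofactor of transcription and CCN1 a secreted matrix protein. The nearest relative was GBP2, at rank 506 (r = 0.466), while GBP3 (-0.0288), GBP4 (-0.269) and GBP5 (-0.119) were farther down. With values not set relative to the clone only 1 of the 5 genes, ZYX, remained among the 5 highest, and over the 8 differences IGF-I minus SFM 2 remained, AMOTL2 and ZYX, with GBP2 at rank 33 (r = 0.922). Without the arrays with letter C, 3 remained.

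At 4 h these genes too were higher with IGF-I, by less than GBP1 in 3 of the clones. They were picked for their likeness to GBP1 on these same arrays, so nothing is read from shared features of the response. FHL2 averaged 11.00 with IGF-I, against 10.02 in SFM, in #6 (0.98), and its difference was 0.78 in #10, 0.85 in #20 and 0.86 in #1. AMOTL2 had differences of 0.11 in #10, 0.40 in #20, 0.35 in #1 and 0.42 in #6, and ZYX 0.12, 0.58, 0.50 and 0.67 in that order. AMOTL2 and ZYX had their smallest value in #10, as GBP1 did. CCN1 had 0.52, 0.51, 0.56 and 0.97 in that order, with the smallest in #20. At 24 h AMOTL2 and ZYX lay between -0.046 and 0.13 in all clones. The promoter table holds windows for 3 of the 5 genes, and a CArG box was found in those of FHL2 (3 of its 4 listed starts, of which 2 share most of their window) and in none of AMOTL2 or ZYX.

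**Figure D5:**
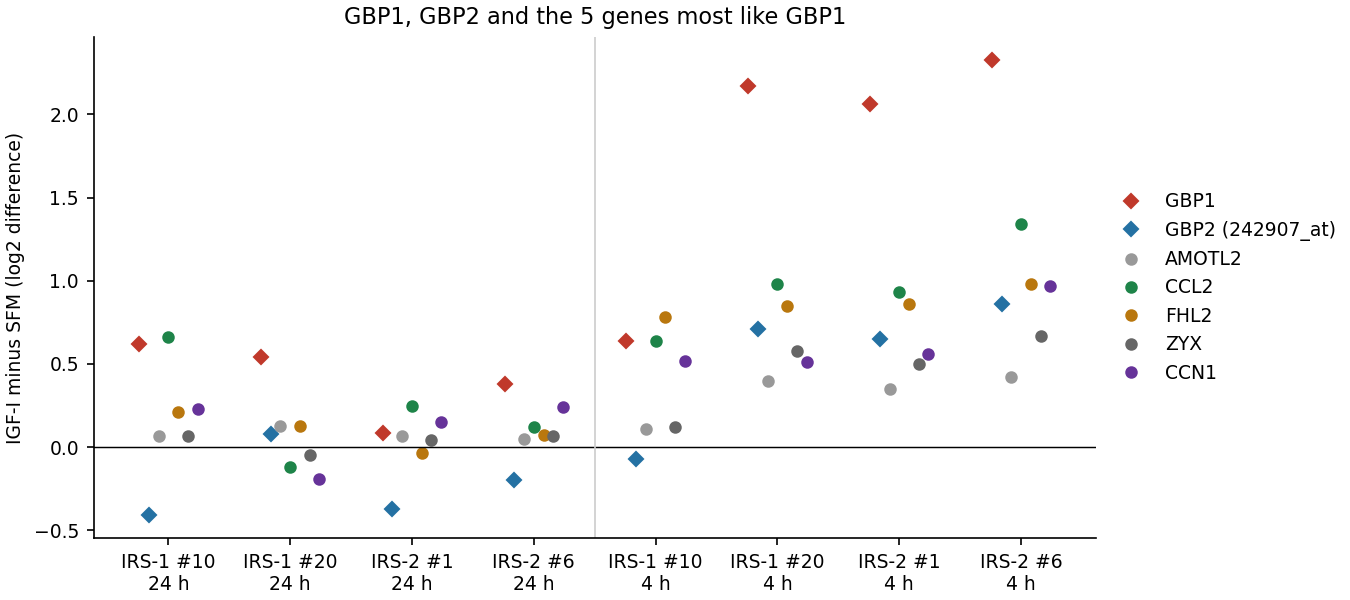
Log2 difference, IGF-I minus SFM, of GBP1 (brightest probe set), GBP2 (dimmer probe set) and the 5 genes most like GBP1 in each clone at 24 h and 4 h. GBP1 stands above the others at 4 h in #20, #1 and #6 (2.06 to 2.33), and in #10 at 4 h it lies at 0.64, beside CCL2 (0.64) and FHL2 (0.78).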

How the data were processed

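Cells were lysed after 4 h or 24 h and RNA was hybridized to HG-U133 Plus 2.0 arrays, 48 in 16 groups of 3. The deposited log2 values were made by the authors with GC-RMA (GCRMA in the submitters' processing notes, version not given in the sources used here), which corrects background by probe sequence, normalizes between arrays and sums up probes. Low values therefore understate fold changes, and the number of arrays limits the precision. Of 54675 probe sets, 62 controls were left out. A single gene symbol was given for 41097, several for 1801 and none for 11777, and genes were named from the first kind only. A linear model of 16 group means was fitted with limma 3.58.1 (R 4.3.3) to 54613 probe sets, with an intensity trend, 32 residual degrees of freedom and Benjamini-Hochberg adjustment over all of them. A call needed an adjusted p under 0.05 and 1.5-fold. The procedure was checked on simulated data. For counts over lists and for naming, the probe set with the highest mean stood for a gene. Named were all members, up to 4 genes per list with the largest difference among those called with IGF-I, IRF1, and the 5 genes most like GBP1 among genes with a mean of 5 or more. List genes called over time in SFM were named after their values were seen. The members and lists were chosen with earlier results of these data known. Alternatives covered normalization, a filter on dim probe sets, the choice of probe set, the fit, the methods' t-test, the fold requirement, each replicate letter left out and the letter as a block. Deviations of same-lettered arrays from their group means had correlations of -0.444 to 0.302 over 24 pairs from IGF-I and SFM groups (3 over 0.1). Over 12 pairs from SFM groups at 24 h and 4 h the correlations were -0.176 to 0.282 (4 over 0.1). Some same-lettered arrays thus deviated together and most did not, and the letters were used as a block only in an alternative fit. Promoters came from the RefSeq table of GRCh38.p14, and alignment used Biopython 1.88.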

Additional observations from a re-analysis of the deposited data

Results flagged for a closer look

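GBP2 was the member whose IGF-I differences took opposite signs, with every array of a group on one side, and none of these contrasts between clones or times was tested. On the dimmer probe set, #1 had -0.37 at 24 h and 0.65 at 4 h, a change of -1.02 on the log2 scale, and #6 had -0.20 at 24 h and 0.86 at 4 h, a change of -1.06. On the brighter probe set, #6 had -0.24 at 24 h and 0.45 at 4 h, a change of -0.69. Between clones at 4 h, the brighter probe set had -0.25 in #10, which was 0.60 below the 0.35 of #20 (-0.60) and 0.71 below the 0.45 of #6 (-0.71). The 0.35 of #20 was 0.17 without the arrays with letter A. In #6 the SFM level of the brighter probe set itself was 0.48 higher at 24 h than at 4 h, and its part in these changes was not tested.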

How the results depend on the processing

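Across 66 results and 621 alternative values, the choice of GBP1 probe set moved the IGF-I differences most. In the order #10, #20, #1 and #6, averaging the GBP1 probe sets gave 0.43, 1.57, 1.42 and 1.61 at 4 h, the third (_x_at) probe set gave 0.32, 1.84, 1.68 and 1.99, and the dimmest gave 0.081, 0.094, -0.16 and -0.14, with the sign turned in both IRS-2 clones. At 24 h the third (_x_at) probe set gave 0.48, 0.37, -0.057 and 0.21. The mean of the probe sets at 24 h was 0.42 in #10, 0.38 in #20 and 0.23 in #6, and the dimmest probe set gave 0.10, 0.19 and -0.051 in these clones. For the second (_s_at) probe set the values at 24 h were 0.50 in #10 and 0.42 in #20. Quantile normalization gave 1.97 in #1 at 4 h. The cause of these shifts was not tested.

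Leaving out 1 replicate letter at a time gave 1.98 to 2.12 for GBP1 in #1 at 4 h, 0.99 to 1.22 for its SFM span at 24 h, 3 to 6 type I targets called over time in #1 (5 with all arrays, 3 without letter A), and 3 to 5 of the 5 genes most like GBP1. The list calls with IGF-I numbered 8 to 13, with 8 without letter A. Averaging all probe sets of a gene also gave 3 type I targets in #1. Without a fold requirement, 2 pairs of gene and clone among GBP2 to GBP5 passed over time in SFM, with GBP1 left out. Nothing is read from that count of members. Also without a fold requirement, 144 list calls were made with IGF-I, and 5, 31 and 26 type I targets were called over time in #10, #20 and #1. Of the genes most like GBP1, 1 remained with values not centred and 2 over the 8 differences. Of 12 named calls of list genes with IGF-I, 6 were lost under at least 1 alternative, and those of CCL2 and CCL20 under none. Of 32 IGF-I differences of GBP2 to GBP5, 7 moved by more than the spread under the mean of probe sets and none under quantile normalization, and differences of at most 0.074 in size changed sign under some alternatives. The replicate block within clone, with 24 residual degrees of freedom in place of 32, left the list calls with IGF-I and the type I calls over time within 1.5 times of the values without it, with 0 calls for GBP2 to GBP5 and a GBP1 difference of 2.33 in #6 at 4 h. Levels under 5, as for GBP3 in most clones and the dimmer GBP5 probe set, limit what these arrays can show.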
